A study of Mus musculus with 6 samples.

Results

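The Ebf genes encode the early B cell factor family of transcription factors, and their 4 mouse members, Ebf1, Ebf2, Ebf3 and Ebf4, were followed by gene symbol through the expression tables of freshly sorted cells of adult mouse hind limb skeletal muscle. All 4 members had a line in the normalised count table of 24062 genes, which covers the Twist2 line. Ebf1 and Ebf2 also had a line in the table of CPM of 4939 genes, which covers both lines. CPM are read counts scaled by an effective library size, which in the Twist2 libraries differed from the read total. Pax7-line values of Ebf3 and Ebf4 were not analysed here. The series set cells labelled through the Twist2 gene against cells labelled through Pax7.

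Cells were sorted as positive or negative for the red fluorescent protein tdTomato from adult C57BL/6 animals of 2 genotypes. Tw2pos (n = 2 libraries) and Tw2neg (n = 2) came from Tw2-CreERT2/+;R26-tdTO+ mice, and Pax7pos (n = 1) and Pax7neg (n = 1) from Pax7-CreERT2/+;R26-tdTO+ mice. Both lines carry a tamoxifen-dependent Cre together with a tdTomato reporter, driven in the first line by Twist2 and in the second by Pax7, so that label is seen only where the driver gene is or was active after tamoxifen. Animals of all groups received tamoxifen 3 times, once every other day, 10 days before the muscle was taken. The labels give no age beyond adult and no number of animals, nor do they tie the 2 libraries of a group to different animals, and the spread behind every p-value here is that between these libraries, which may be technical.

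Ebf proteins bind DNA as dimers through a family-specific zinc-coordinating domain and a helix-loop-helix region, and recognise a palindrome. Ebf1 is best known as a factor that commits lymphoid progenitors to the B lineage, together with the E protein Tcf3 and with Pax5, but Ebf1 and its relatives are also expressed in mesenchymal cells of fat, bone marrow and bone. Ebf2 marks brown fat precursors and acts in the osteoblast lineage, Ebf3 is known in reticular stromal cells of bone marrow and in developing neurons, and Ebf4 is the least studied member. In skeletal muscle, Pdgfra-positive fibro-adipogenic progenitors form the main interstitial mesenchymal population, whereas satellite cells, the myogenic stem cells beneath the basal lamina, express Pax7.

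The 4 genes lie on 4 chromosomes (GRCm38 coordinates, GENCODE M21). Ebf1 (ENSMUSG00000057098.14) spans chromosome 11 from 44617317 to 45008091 on the plus strand, Ebf2 (ENSMUSG00000022053.13) chromosome 14 from 67233292 to 67430918 on the plus strand, Ebf3 (ENSMUSG00000010476.14) chromosome 7 from 137193673 to 137314445 on the minus strand, and Ebf4 (ENSMUSG00000053552.14) chromosome 2 from 130295169 to 130370481 on the plus strand. The union of annotated exons was 9756 bases for Ebf1, 6928 for Ebf2, 9227 for Ebf3 and 3236 for Ebf4. Annotated antisense genes touch exons of Ebf2 (4930438E09Rik and Gm10860) and of Ebf3 (Gm10578 and Gm45278). The labels do not state whether the counting used strand. Of these 4 antisense genes, 4930438E09Rik and Gm10578 were listed at 0 in the normalised count table, while the other two had no line.

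RefSeq promoter windows (GRCm38.p6, 250 bases before to 50 after a start) matched 3 of the 4 members. They are shown because the start regions of the members differed in base composition. The window at the first RefSeq start of Ebf1 had 36.7% GC and 9 CpG dinucleotides, and it lay within exons of GENCODE models, so its sequence is not printed. The window of the second Ebf1 start (chr11:44619978-44620277, plus strand) had 53.0% GC and 17 CpG, and 0 of its bases lay in GENCODE exons of Ebf1. The window of Ebf3 (chr7:137314396-137314695, minus strand) had 77.0% GC and 46 CpG. That of Ebf4 (chr2:130295689-130295988, plus strand) had 74.3% GC and 35 CpG. The Ebf3 and Ebf4 windows each had 50 bases in exons of their gene. Over 32851 RefSeq promoters the medians were 52.7% GC and 7 CpG, which put the Ebf3 and Ebf4 windows at percentiles 97.6 and 95.6 for GC and the first Ebf1 window at 5.33. Motifs found are in capitals, each sequence running 5′ to 3′ on the gene's strand:
Ebf1, second start: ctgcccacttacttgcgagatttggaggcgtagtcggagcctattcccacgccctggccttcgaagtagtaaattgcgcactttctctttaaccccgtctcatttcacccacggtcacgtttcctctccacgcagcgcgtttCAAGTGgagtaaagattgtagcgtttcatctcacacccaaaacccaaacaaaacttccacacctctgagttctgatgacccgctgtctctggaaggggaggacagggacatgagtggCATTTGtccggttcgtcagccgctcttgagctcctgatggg
Ebf3: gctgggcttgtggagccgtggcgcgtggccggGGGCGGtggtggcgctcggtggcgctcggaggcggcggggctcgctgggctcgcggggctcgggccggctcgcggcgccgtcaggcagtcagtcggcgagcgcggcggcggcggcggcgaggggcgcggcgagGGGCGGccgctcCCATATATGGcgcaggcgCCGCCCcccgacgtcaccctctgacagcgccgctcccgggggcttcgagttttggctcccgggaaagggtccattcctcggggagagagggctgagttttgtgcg
Ebf4: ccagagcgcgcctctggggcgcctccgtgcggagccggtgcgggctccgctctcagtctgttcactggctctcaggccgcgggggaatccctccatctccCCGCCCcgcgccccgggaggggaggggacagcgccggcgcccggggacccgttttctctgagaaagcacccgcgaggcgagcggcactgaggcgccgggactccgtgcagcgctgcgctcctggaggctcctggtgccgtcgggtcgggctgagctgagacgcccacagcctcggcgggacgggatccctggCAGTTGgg

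The capitals mark matches on either strand to CANNTG, the E-box core bound by basic helix-loop-helix factors (72.3% of all promoters held one), to GGGCGG, the GC box (35.7%), and to the CArG box bound by serum response factor (1.63%). Also searched were the Ebf palindrome (TCCC, any 2 bases, then GGGA; 0.904% of promoters), the E-box form CATATG (3.91%) and TATAAA (13.6%), none of which occurred in any of the 4 windows, and the first Ebf1 window held no match to any of the 6 motifs. A CATATG match is also a CANNTG match. The second Ebf1 window held 2 CANNTG matches, at bases 143 to 148 and 260 to 265 counted from its 5′ end. The Ebf3 window held 3 GGGCGG matches and 1 CArG box, CCATATATGG at bases 178 to 187, and the Ebf4 window held 1 GGGCGG and 1 CANNTG match. These matches describe letters in the windows and not bound sites.

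The Twist2 libraries held 10902318 to 13205751 recovered reads, and the CPM table held 6016469 reads of Pax7pos and 7565797 of Pax7neg. The effective library sizes behind CPM were 9710688 and 10262454 in Tw2pos, against 10902318 and 12425426 recovered reads. In Tw2neg they were 15312683 and 15643678, against 13205751 and 13005707 reads. Values in CPM and CPM per kb were therefore higher in Tw2pos, and lower in Tw2neg, than scaling by read totals would give. The chi-square per degree of freedom between replicates was 13.7 in Tw2pos and 69.6 in Tw2neg (genes with at least 10 reads in the pair), so no library pair agreed within counting error. The 2 Tw2neg libraries stood apart in their cell type markers. The summed CPM of 10 fibro-adipogenic markers (Pdgfra, Ly6a, Dcn and others) was 88181 and 107980 in Tw2pos, 23356 and 16200 in Tw2neg replicates 1 and 2, 3069 in Pax7pos and 47394 in Pax7neg. The labelled Twist2 cells therefore carried the markers of mesenchymal cells, and their sum was lower in the unlabelled cells. Gsn, Col1a1 and Dcn made up most of each sum. Not every marker followed the sum in Pax7neg. Ly6a was at 477 and 713 CPM in Tw2pos, 368 and 276 in Tw2neg and 645 in Pax7neg. Pi16 in Pax7neg (410 CPM) lay between its Tw2pos libraries (360 and 509). Over 7 tendon markers the sums were 32494 and 28758 in Tw2pos, 5996 and 2605 in Tw2neg, 537 in Pax7pos and 9134 in Pax7neg. Over 8 B cell markers (Cd79a, Pax5 and others) they were 5.35 and 8.09 in Tw2pos and 496 and 1214 in Tw2neg, and over the 7 of them that also have Pax7-line values they were 5.33 in Pax7pos and 868 in Pax7neg. Satellite cell markers (7 in the CPM table) summed to 1132 and 1253 in Tw2pos, 1067 and 647 in Tw2neg, 5580 in Pax7pos and 656 in Pax7neg. Chodl and Sdc4 made up most of the Tw2pos sums, and Pax7 itself was at 12.2 and 7.21 CPM in Tw2pos, 45.7 and 14.8 in Tw2neg, 303 in Pax7pos and 0.402 in Pax7neg. No marker of these 4 lists was at 0 in both libraries of a Twist2 group. In bulk samples, fewer cells of a type and less RNA per cell cannot be told apart.

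Within the Twist2 line, Ebf1, Ebf2 and Ebf4 were higher in labelled than in unlabelled cells, by 0.92 to 1.85 on the log2 scale. Ebf1, the B lineage and stromal factor, had 2306 and 2810 normalised counts in the Tw2pos libraries and 1294 and 1402 in Tw2neg. Ebf2, the brown fat precursor factor, had 1869 and 1832 in Tw2pos and 677 and 387 in Tw2neg. Ebf3 had 964 and 802 in Tw2pos and 721 and 325 in Tw2neg. Ebf4, the lowest member, had 113 and 107 in Tw2pos and 48.0 and 25.6 in Tw2neg, which rests on 89 and 89 recovered reads against 59 and 32. For each of the 4 genes both labelled libraries lay above both unlabelled ones, as they did for 37.1% of the 14155 genes tested.

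The members differed in how closely replicates agreed. In Tw2neg, Ebf2, Ebf3 and Ebf4 were lower in replicate 2 than in replicate 1, whereas Ebf1 was slightly higher in replicate 2. Replicate 2 also had less fibro-adipogenic and tendon signal. Summed pericyte and smooth muscle markers were at 1680 CPM in replicate 1 and 549 in replicate 2, and endothelial markers at 2764 and 995. Schwann, satellite cell and adipocyte markers were lower in replicate 2 too, while B cell and macrophage markers were higher. The part of these marker differences in the Ebf values was not tested. In Tw2pos the mean of Ebf2 was 1851 ± 26.1 normalised counts, that of Ebf1 2558 ± 356 and that of Ebf3 883 ± 114 (SD, n = 2 each).

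**Figure D1:**
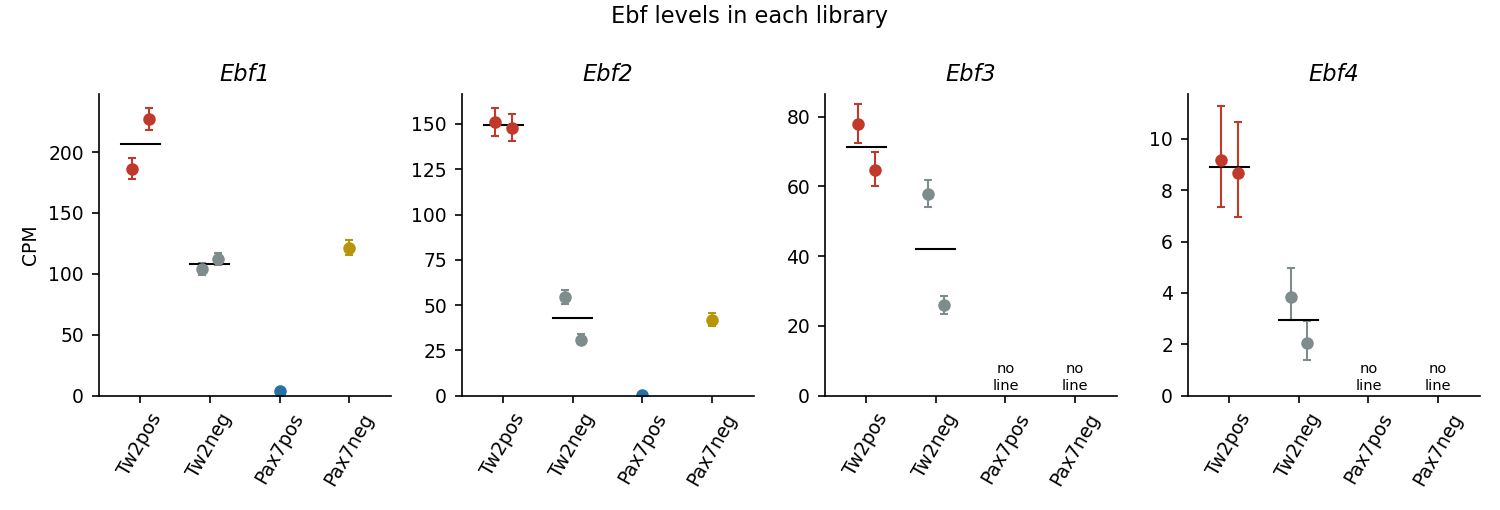
CPM of Ebf1, Ebf2, Ebf3 and Ebf4 (vertical axes, linear, one panel a gene) in each library of the 4 groups. Points are libraries with exact Poisson 95% intervals that cover counting error only, black lines are means of 2 libraries, and "no line" marks genes without a line in the table of both lines. Both Tw2pos points lie above both Tw2neg points in every panel, and the Pax7pos points of Ebf1 (3.66 CPM) and Ebf2 (0.209 CPM) lie near 0.

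Fitted with limma on log2 of the normalised count plus 1 over 14155 genes, Ebf2 rose by 1.85 (SE 0.28, adjusted p = 0.00539, 95% interval 1.16 to 2.55). Ebf4 rose by 1.63 (SE 0.39, adjusted p = 0.0216) and Ebf1 by 0.92 (SE 0.19, adjusted p = 0.0144). Ebf3 differed by 0.86 (SE 0.38), a point estimate close to that of Ebf1, but did not pass (adjusted p = 0.12, interval -0.07 to 1.79). Its unlabelled libraries averaged 523 ± 280 normalised counts (SD, n = 2), a spread nearly as wide as the gap to the labelled mean. So 3 of 4 members passed upward and 0 downward, where 18.7% of all genes tested passed upward and 20.0% downward, and the all-gene median was -0.04. Among all tested genes the fold changes of Ebf2 and Ebf4 stood at percentiles 93.9 and 91.4, and those of Ebf1 and Ebf3 at 81.1 and 79.8. Without Tw2pos replicate 1 the value was 1.06 for Ebf1 and 1.59 for Ebf4, and without Tw2pos replicate 2 it was 0.78 and 1.67. Neither call held with 1 labelled library in limma. Ebf3 was at 1.43 without Tw2neg replicate 1 and at 0.29 without Tw2neg replicate 2. Scaling by library total, which moved the all-gene median to -0.49, gave Ebf1 0.47 (adjusted p = 0.0821), or 0.96 above that median.

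The rank of each member among expressed genes gives the scale of these levels. In Tw2pos, Ebf1 stood at percentile 94.98 of the 17313 genes above 0 and Ebf2 at 93.0, while Ebf3 stood at 83.5 and Ebf4 at 45.3. In Tw2neg the percentiles were 90.0, 73.8, 73.4 and 31.9 of 17974 genes. The Ebf2 percentile differed most between the groups, and in unlabelled cells it was close to that of Ebf3.

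Levels were compared between the genes per kilobase of exon. In CPM per kb over the exon union, Ebf1 had 19.1 and 23.3 in Tw2pos and Ebf2 21.8 and 21.4, so that these genes overlapped. Ebf3 followed at 8.44 and 7.02 and Ebf4 at 2.83 and 2.68. In Tw2neg, Ebf1 led at 10.6 and 11.5, Ebf2 had 7.84 and 4.47 and Ebf3 6.28 and 2.81, again overlapping, and Ebf4 had 1.19 and 0.632. Dividing by the longest coding transcript instead put Ebf1 (31.1 and 38.0) above Ebf2 (29.0 and 28.4) in both Tw2pos libraries, so the order of the leading members depends on which transcript lengths apply. Ebf4 was the lowest member in all 4 libraries with either length.

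The 4 members together summed to 52.2 and 54.3 CPM per kb in Tw2pos and 26.0 and 19.4 in Tw2neg. The family mean was 53.2 ± 1.54 against 22.7 ± 4.64 CPM per kb (SD, n = 2 each). Ebf2 supplied 41.8% and 39.3% of that sum in Tw2pos and 30.2% and 23.0% in Tw2neg. Ebf1 supplied 36.6% and 42.8% in Tw2pos against 41.0% and 59.2% in Tw2neg, where the groups overlap. The log2 ratio of Ebf2 to Ebf1 in CPM was -0.46 in Tw2pos and -1.40 in Tw2neg, a difference of 0.94 that an exact two-sided permutation test put at p = 0.333, the smallest p that 2 libraries against 2 can give. The ratio of Ebf3 to Ebf1 differed by -0.06 (exact permutation p = 1) and that of Ebf4 to Ebf1 by 0.74 (exact permutation p = 0.333).

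**Figure D2:**
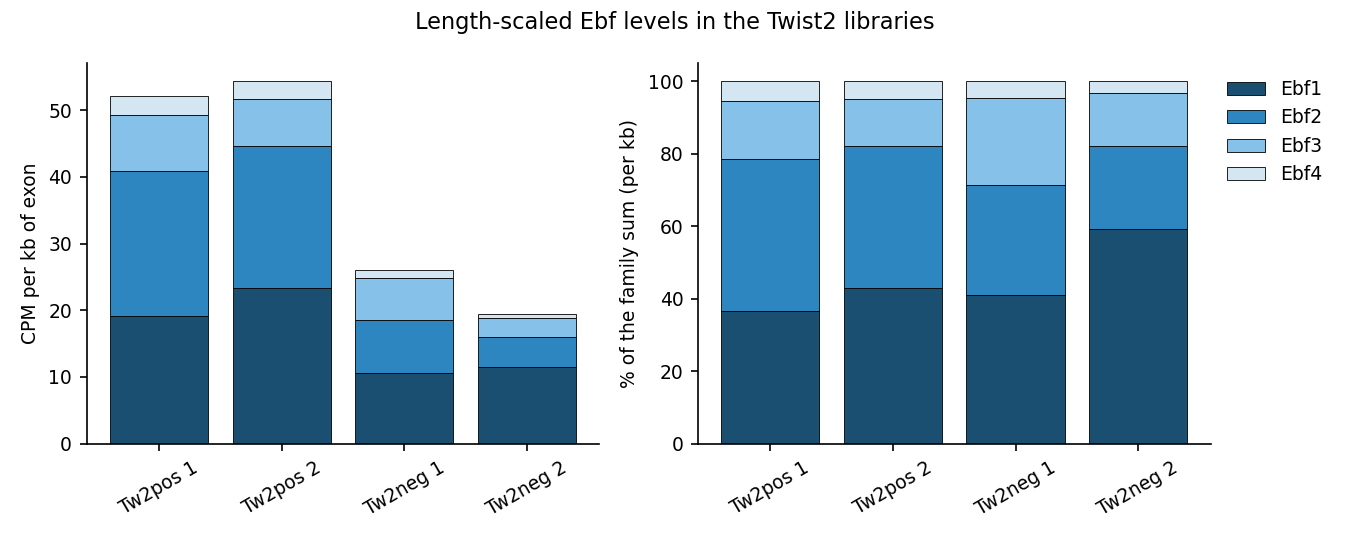
Stacked bars of CPM per kb of exon union (left) and of each member's percentage of the family sum (right) for the 4 Twist2 libraries, coloured by member. The Tw2pos bars reach 52.2 and 54.3 CPM per kb and the Tw2neg bars 26.0 and 19.4, and the Ebf2 share is larger in both Tw2pos libraries.

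The comparison of labelled cells of the 2 lines asks how cells marked through Twist2 differ from satellite cells marked through Pax7. Ebf1 and Ebf2 were high in Twist2-labelled cells and almost without reads in Pax7-labelled cells. Ebf1 had 186 and 227 CPM in Tw2pos and 3.66 in Pax7pos, which rests on 35 reads (exact Poisson 95% interval 2.55 to 5.08 CPM, counting error only). Ebf2 had 151 and 148 CPM in Tw2pos and 0.209 in Pax7pos, which rests on 2 reads (0.0253 to 0.755 CPM). Pax7pos was thus the lowest of the 6 libraries for both genes, and for Ebf2 it was close to the limit of detection.

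In the 6-library limma fit on log2 of CPM plus 1, Ebf1 was 5.47 higher in Tw2pos than in Pax7pos (SE 0.31, adjusted p = 2.52e-05, 95% interval 4.75 to 6.20) and Ebf2 6.96 higher (SE 0.40, adjusted p = 2.52e-05, interval 6.04 to 7.88). Both members of the table passed upward, where 33.9% of its 4790 tested genes passed upward and 25.7% downward, with a median of 0.41. All 4939 genes of this table reach 10 CPM in 3 of the 6 libraries and differ 2-fold from Tw2neg in some comparison of the authors' deposited table, so these shares describe a table already chosen for differences. For Ebf1 the deposited log2 fold changes of Tw2pos (0.93) and Pax7neg (0.16) fell short of 2-fold, and that of Pax7pos (-4.55) did not. Ebf1 thus entered through its Pax7pos difference, and its test against Pax7pos is not independent of that choice. Ebf2 reached 2-fold in Pax7pos (-5.17) and in Tw2pos (1.79), the groups compared here, so its test is not independent of that choice either. The limma differences of Ebf1 and Ebf2 stood at percentiles 97.7 and 99.6. The single Pax7pos library takes its spread from the Twist2 pairs. The upward share was lower under other settings, with 1275 genes higher and 1619 lower by TMM (trimmed mean of M-values) factors and 852 and 995 by quantile normalisation, against 1624 and 1229. The counts were 1357 and 1492 by edgeR and 1330 and 1574 by DESeq2, which change the test as well as the scaling.

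The plus-1 scale holds back the fold of a gene with 2 reads, so ratios of single libraries to Pax7pos were taken with exact conditional binomial intervals. For Ebf1 the ratio was 51.0 (36.5 to 73.4) and 62.1 (44.5 to 89.4) in Tw2pos, 28.4 and 30.6 in Tw2neg and 33.1 (23.7 to 47.8) in Pax7neg. For Ebf2 it was 723 (200 to 5972) and 708 (196 to 5855) in Tw2pos, 260 and 148 in Tw2neg and 201 (55.3 to 1662) in Pax7neg. On recovered reads edgeR gave a log2 difference between Tw2pos and Pax7pos of 5.50 for Ebf1 and 9.12 for Ebf2, and DESeq2 gave 5.38 and 9.05.

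Unlabelled cells of the 2 lines had similar measured levels of both genes. Ebf1 was at 104 and 112 CPM in Tw2neg and at 121 in Pax7neg (1508 reads), and the limma difference was -0.17 (SE 0.31, adjusted p = 0.857, interval -0.89 to 0.56). Ebf2 was at 54.3 and 30.9 CPM in Tw2neg and at 41.9 in Pax7neg (522 reads), inside the range of the Tw2neg pair, with a difference of -0.03 (SE 0.40, adjusted p = 0.979, interval -0.95 to 0.89). In this comparison 0.146% of the genes passed upward and 0.0835% downward, 11 in all, against 1038 without Tw2neg replicate 1 and 855 without Tw2neg replicate 2. Ebf2 was then at -0.43 (adjusted p = 0.183) and 0.37 (adjusted p = 0.252), and neither member passed.

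Within the Pax7 line the order of labelled and unlabelled cells was the opposite of that in the Twist2 line. Ebf1 was at 3.66 CPM in Pax7pos against 121 in Pax7neg, and Ebf2 at 0.209 against 41.9. On log2 of CPM plus 10, the differences were -3.26 and -2.35, with no test because each group has 1 library. Both genes were past a size of 2 downward, as were 15.0% of the genes, while 3.95% were past it upward, and the median was -0.40.

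The difference between the lines was tested as the labelled-minus-unlabelled effect in the Twist2 line minus that in the Pax7 line. It was 5.64 for Ebf1 (SE 0.44, adjusted p = 0.00014 in limma) and 6.99 for Ebf2 (SE 0.56, adjusted p = 0.000154). By this test 23.4% of the genes were higher and 12.8% lower (1121 and 615 genes), and by TMM factors 903 and 1300. The 4 comparisons share libraries, so their values for Ebf1 and Ebf2 are given side by side and are not independent. For both genes, those that involve Pax7pos also use a value through which the gene entered the CPM table. For Ebf2 the Tw2pos value was another such value. In the authors' deposited table, the log2 fold changes against Tw2neg were 0.93 for Tw2pos, -4.55 for Pax7pos and 0.16 for Pax7neg for Ebf1, and 1.79, -5.17 and -0.02 for Ebf2.

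**Figure D3:**
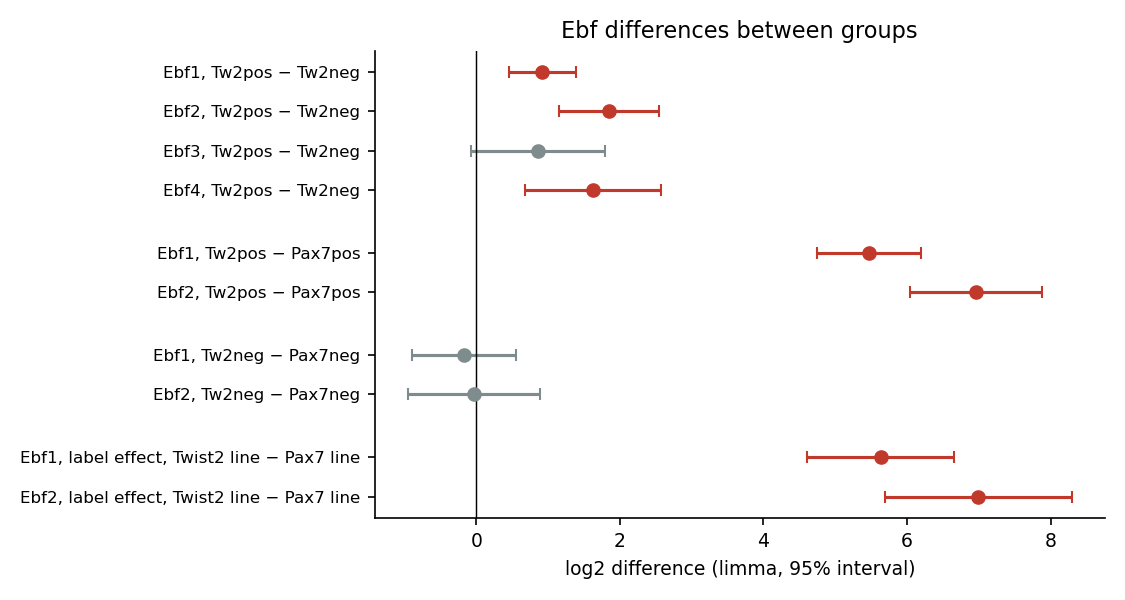
log2 differences (horizontal axis) of the Ebf members with 95% intervals from limma, grouped by comparison. Red marks an adjusted p under 0.05 and grey a higher one. The values of Tw2pos against Pax7pos and of the label effect lie between 5.47 and 6.99, those of Tw2pos against Tw2neg between 0.86 and 1.85, and those of Tw2neg against Pax7neg at -0.17 and -0.03.

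Across the 6 libraries, the profiles most like that of Ebf1 among 4790 genes, by Euclidean distance of centred log2(CPM + 1), were those of Ccnd2, a D-type cyclin (distance 0.55), Efemp1, a fibulin of the extracellular matrix (0.58), and Pla1a, a phospholipase (0.65). Ccnd2 was at 239 and 247 CPM in Tw2pos, 165 and 153 in Tw2neg, 6.89 in Pax7pos and 144 in Pax7neg. The profiles nearest to Ebf2 were those of Sema3c, a secreted semaphorin (0.42), Pdgfra, the receptor that defines fibro-adipogenic progenitors (0.44), and Penk, the enkephalin precursor (0.57). Sema3c was at 333 and 340 CPM in Tw2pos, 106 and 66.9 in Tw2neg, 1.78 in Pax7pos and 122 in Pax7neg. Over the 4 Twist2 libraries and 14155 genes, Ebf3 lay nearest to Amotl2, an angiomotin family member (0.03), Prkg1, a cGMP-dependent kinase (0.06), and Tnfrsf21 (0.09). Ebf4 lay nearest to Maged1 (0.03), Kctd11 (0.05) and Ttc8 (0.05). With so few libraries many genes lie close, and the distances over 4 and 6 libraries are on different scales.

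**Figure D4:**
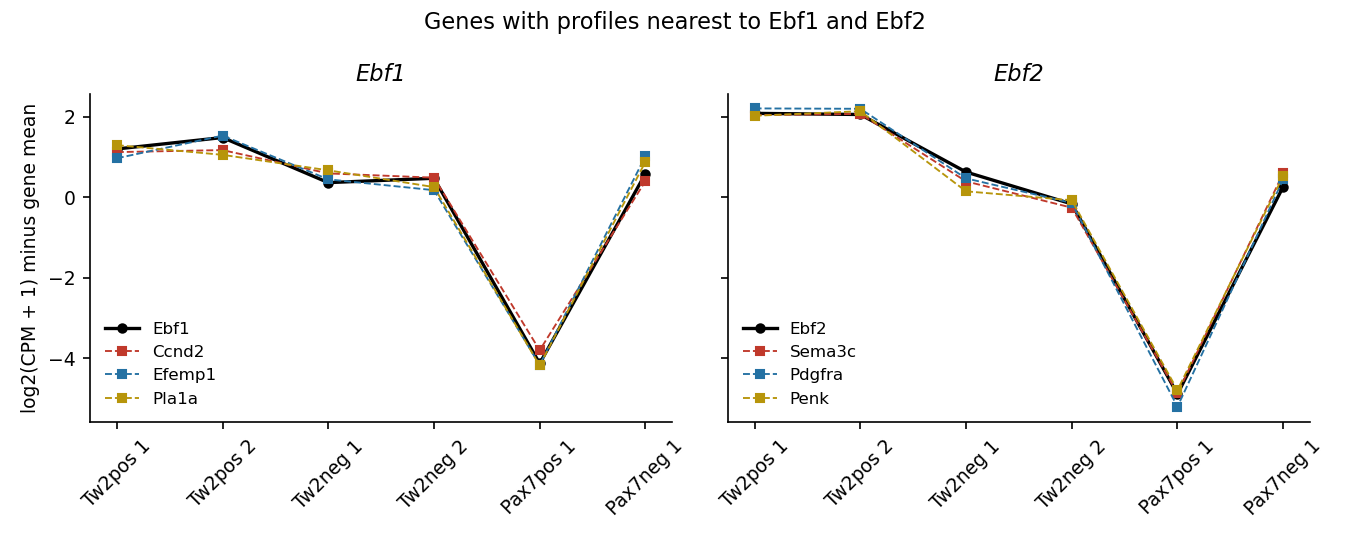
Centred log2(CPM + 1) (vertical axis) across the 6 libraries (horizontal axis) for Ebf1 (left) and Ebf2 (right), each in black with its 3 nearest genes in colour. The lines join libraries only to guide the eye. All 8 profiles are lowest in Pax7pos, and the Ebf2 panel steps down further from Tw2pos to Tw2neg than the Ebf1 panel.

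The members were also set against Pdgfra, chosen after its values were seen. Its profile is among the nearest to that of Ebf2, so the choice of gene itself keeps their ratio close to constant. Pdgfra was at 898 and 892 CPM in Tw2pos, 269 and 176 in Tw2neg, 4.28 in Pax7pos and 264 in Pax7neg. The ratio of Ebf2 to Pdgfra CPM was 0.168 and 0.166 in Tw2pos, 0.202 and 0.176 in Tw2neg, 0.159 in Pax7neg and 0.0488 in Pax7pos, where Ebf2 has 2 reads. The ratio of Ebf1 to Pdgfra was 0.207 and 0.254 in Tw2pos, 0.387 and 0.638 in Tw2neg, 0.459 in Pax7neg and 0.854 in Pax7pos. For Ebf3 it was 0.0867 and 0.0726 against 0.216 and 0.148, and for Ebf4 0.0102 and 0.00972 against 0.0143 and 0.0116. All 4 ratios were lower in both Tw2pos libraries than in both Tw2neg libraries, the reverse of the CPM, as were those of 91.8% of the 14155 genes.

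Genes linked to Ebf factors were described in 4 lists. Of 11 cofactors and interacting factors, 4 rose, 3 fell and 4 did not pass in Tw2pos against Tw2neg, where 18.7% of all genes rose and 20.0% fell, with a median of -0.37 against -0.04 for all genes. Zfp423, a zinc finger protein that binds Ebf proteins, had 597 and 672 normalised counts in Tw2pos and 320 and 125 in Tw2neg, and rose by 1.66 (limma adjusted p = 0.0288). It did not pass in limma with no filter on level (adjusted p = 0.0593) or no variance trend (adjusted p = 0.0585). Without Tw2pos replicates 1 and 2 its change was 1.74 and 1.57. The E proteins Tcf4 and Tcf12 rose by 1.15 (adjusted p = 0.0237) and 0.54 (adjusted p = 0.0486). Tcf12 did not pass by edgeR (0.56, adjusted p = 0.0542), DESeq2 (0.56, adjusted p = 0.0798), quantile normalisation (0.45, adjusted p = 0.0785) or library total scaling (0.09, adjusted p = 0.692). Tcf4 did not pass by the last 2 either (0.87, adjusted p = 0.0739, and 0.70, adjusted p = 0.0664). Smarca4, the ATPase of the BAF chromatin remodeller, fell by 1.07 (adjusted p = 0.00647). Chd4, the remodeller of the NuRD complex, differed by -0.37 (adjusted p = 0.211). Zfp521, the relative of Zfp423, named after its values were seen, rose by 1.56 (adjusted p = 0.0124). The count is not stable, since without Tw2pos replicate 1, and likewise without Tw2pos replicate 2, 1 member rose and 0 fell, and scaling by library total gave 2 and 6.

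Against Pax7pos, 5 of the cofactors could be tested, of which 1 was higher and 2 were lower in Tw2pos (median 0.86), beside 33.9% and 25.7% of all genes. Zfp423 was at 48.2 and 54.3 CPM in Tw2pos and at 5.64 in Pax7pos, a difference of 2.97 (limma adjusted p = 0.0026). Runx1, a partner of Ebf1 in B cells, went the other way, with 122 and 143 CPM in Tw2pos and 1309 in Pax7pos (-3.30, adjusted p = 0.000224), and Smarca4 differed by -1.17 (adjusted p = 0.0124). Without Tw2pos replicate 1, and likewise without replicate 2, 1 cofactor was lower, as Smarca4 no longer passed (Smarca4 -1.20, adjusted p = 0.103, and -1.13, adjusted p = 0.123). By quantile normalisation Zfp423 no longer passed (1.85, adjusted p = 0.0505).

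Ebf1 is a B lineage factor, and within the Twist2 line the B lineage genes moved against it, while within the Pax7 line both were lower in labelled cells. Of 15 such genes, 11 were tested in Tw2pos against Tw2neg, and 10 fell, 0 rose and 1 did not pass (all genes 20.0% lower and 18.7% higher), with a median of -6.48. Cd79a, a signalling chain of the B cell receptor, had 17.8 and 35.0 normalised counts in Tw2pos and 1356 and 3159 in Tw2neg and fell by 6.31 (limma adjusted p = 0.00072). Pax5, the B cell identity factor, had 1 read in each Tw2pos library and 255 and 604 normalised counts in Tw2neg. Foxo1, which is expressed in many cell types, differed by -0.07 (adjusted p = 0.785). Against Pax7pos, 0 of 8 tested B lineage genes passed in limma in either direction (median 0.12), with 0 at an unadjusted p under 0.05 and 0 by edgeR or DESeq2, Cd79a being at 1.44 and 2.83 CPM in Tw2pos and at 1.78 in Pax7pos. In Pax7pos against Pax7neg all 8 were past a size of 2 downward, as were 15.0% of all genes. Ebf1 was therefore high in Tw2pos where B lineage genes had few reads, and in the unlabelled libraries it was measured together with them. The part of B cells in the Ebf1 level of Tw2neg and Pax7neg was not tested.

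Among 13 adipogenic genes, 11 were tested in Tw2pos against Tw2neg, and 4 rose, 2 fell and 5 did not pass (median 0.74), where 18.7% of all genes rose and 20.0% fell. Cebpd, an early regulator of fat cell differentiation, rose by 1.83 (limma adjusted p = 0.00546), Adipoq, the adipokine adiponectin, by 2.16 from a mean of 8.07 to 39.8 normalised counts (adjusted p = 0.0133), and Lpl, lipoprotein lipase, by 0.92 (adjusted p = 0.0465). Lpl did not pass by edgeR (0.92, adjusted p = 0.0547), quantile normalisation (0.51, adjusted p = 0.161) or library total scaling (0.47, adjusted p = 0.163). Fabp4, a lipid carrier of fat cells, endothelium and macrophages, fell by 1.85 (limma adjusted p = 0.0334). It did not pass in limma with no filter on level (adjusted p = 0.0685) or no variance trend (adjusted p = 0.066). Endothelial markers summed to 539 and 387 CPM in Tw2pos and 2764 and 995 in Tw2neg, and the part of these cells in the Fabp4 result was not tested. The number that rose was 1 without Tw2pos replicate 1, 2 without Tw2pos replicate 2 and 2 without Tw2neg replicate 2, and 0 fell without Tw2neg replicate 1 or without Tw2pos replicate 2. Against Pax7pos, 2 of 5 tested genes were higher, Lpl (2.04, adjusted p = 0.00348) and Fabp4 (1.59, adjusted p = 0.0495), and 2 were lower, led by Cebpb (-2.47, adjusted p = 0.000705), beside 33.9% and 25.7% of all genes. Fabp4 did not pass with TMM factors (1.11, adjusted p = 0.0845), edgeR (1.42, adjusted p = 0.071), no variance trend (1.59, adjusted p = 0.0611), a pseudocount of 10 (1.41, adjusted p = 0.0801) or quantile normalisation (1.31, adjusted p = 0.131). Without Tw2pos replicate 1 each count was 1, with Fabp4 at 1.06 (adjusted p = 0.148), and without Tw2pos replicate 2 1 was lower.

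Of 10 stromal and bone niche genes, 4 rose, 0 fell and 6 did not pass in Tw2pos against Tw2neg in limma (median 1.45), where 18.7% of all genes rose and 20.0% fell, with 1 lower at an unadjusted p under 0.05 and 0 lower by edgeR or DESeq2. Tnfrsf11b, the decoy receptor osteoprotegerin and a gene linked to Ebf2 in bone, had 833 and 736 normalised counts in Tw2pos and 88.6 and 56.0 in Tw2neg, and rose by 3.45 (limma adjusted p = 0.000841). The receptors Pdgfra and Pdgfrb rose by 2.03 (adjusted p = 0.00362) and 1.91 (adjusted p = 0.0199), and the remaining gene that passed was Lepr, the leptin receptor, named after its values were seen. Cxcl12, the chemokine of marrow reticular cells, differed by 0.22 (adjusted p = 0.717). Without Tw2neg replicate 2, 2 members fell. Against Pax7pos all 7 tested members were higher in Tw2pos (median 3.25), as were 33.9% of all genes, with Pdgfra at 7.41 (adjusted p = 2.52e-05), Pdgfrb at 4.62 (adjusted p = 0.000362) and Cxcl12 at 3.25 (adjusted p = 0.00189), and 5 were higher by quantile normalisation. In Pax7pos against Pax7neg, 4 of 7 were past a size of 2 downward, beside 15.0% of all genes.

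Between the unlabelled cells, 0 of 5 cofactors, 0 of 8 B lineage, 0 of 5 adipogenic and 0 of 7 stromal genes passed in limma. Of all genes tested there, 0.146% passed upward and 0.0835% downward. At an unadjusted p under 0.05, 1 adipogenic gene was lower. Leaving out Tw2neg replicate 1 raised the cofactor, adipogenic and stromal counts, and leaving out Tw2neg replicate 2 the adipogenic and stromal ones. The count over all genes rose in both of these fits. In the limma test of the difference between the lines, 23.4% of all genes were higher and 12.8% lower. There, 6 of 7 stromal genes, 1 of 5 adipogenic genes (Lpl) and 1 of 5 cofactors (Zfp423, 3.06, adjusted p = 0.0165) were higher. The 2 cofactors that were lower were Runx1 (-3.23, adjusted p = 0.00203) and Smarca4 (-1.40, adjusted p = 0.0366). Of the B lineage genes, 0 of 8 passed in limma, with 0 at an unadjusted p under 0.05. Fibro-adipogenic and tendon markers moved with these values, since 7 of 10 and 7 of 7 of them rose in Tw2pos against Tw2neg, where 18.7% of all genes rose. The fibro-adipogenic count was smaller without Tw2pos replicate 2. The part of these markers in the Ebf differences was not tested.

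**Figure D5:**
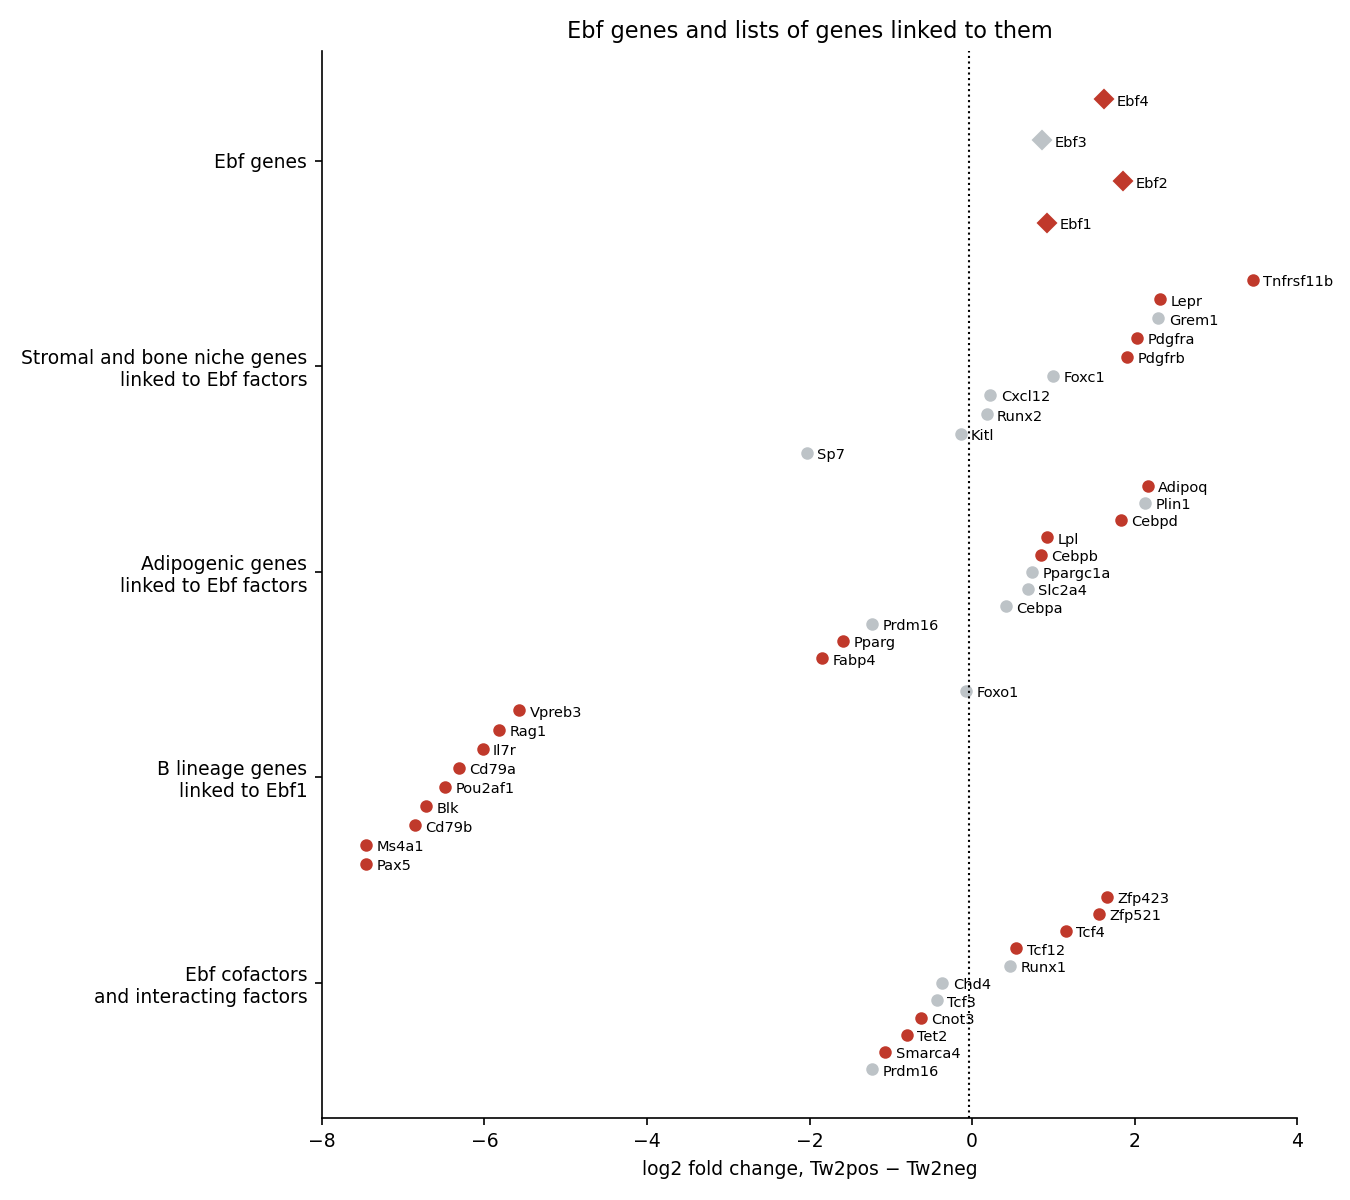
log2 fold change of Tw2pos against Tw2neg (horizontal axis) for the 4 Ebf genes (diamonds) and tested members of the 4 lists (circles, with 1 B lineage gene left out). Red marks an adjusted p under 0.05 in limma, grey a higher one, and the dotted line is the all-gene median of -0.04. The B lineage genes that passed lie at the far left, while Tnfrsf11b at 3.45 lies furthest right.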

How the data were processed

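RNA sequencing of 6 libraries was analysed from the authors' processed tables; TopHat2 2.0.0, DESeq2 1.6.3 and the assembly GRCm38/mm10 are named per the submitters' processing notes, while for the read counter and annotation nothing is given in the sources used here. The first deposited table holds a signal, gene counts divided by size factors and called normalised counts here, for the 4 Twist2 libraries. The second deposited table holds CPM for both lines, with Twist2 groups as means of 2 libraries, and the authors' log2 fold changes, quoted only where named. Dividing by the value of 1 read gave whole reads for 100% of values (tolerance 0.01) in the Twist2 and Pax7pos columns, and CPM of single Twist2 libraries were rebuilt from them. The lowest Pax7neg values lie above 1 read, so its read numbers are inferred from the common step of its values and used only for depth, intervals and ratios.

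Tests were made on log2(value + 1) in R 4.3.3 (limma 3.58.1, variance trend over the mean level). They covered the 14155 genes whose mean reached 10 normalised counts, or the 4790 that reached a mean CPM of 10. Each fit left 2 residual degrees of freedom, and p-values were adjusted by Benjamini-Hochberg over all genes tested, at 0.05. A fold change on this scale understates that of low genes. Fits were also run on simulated counts with the same spread for every gene and group. The Tw2pos and Tw2neg pairs differed in spread, so these runs do not give error rates for these data. Alternatives (scaling, filter, pseudocount, variance trend, edgeR 4.0.16, DESeq2 1.42.0, replicate block, leaving out each replicate) are given at the end. Poisson and binomial intervals cover counting error only.

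The members and gene lists were chosen with earlier results of these data known. Besides the members, the genes named were, from each list, up to 3 members of the highest mean and the largest passing change in each direction, and for each member the 3 genes of nearest profile, leaving out predicted genes; others are said to be named after their values were seen. One gene that this rule names is not reported here. Marker lists of Schwann cells, adipocytes, macrophages and pericytes were also summed: 4, 2, 7 and 0 of their 7, 5, 7 and 8 tested members fell in Tw2pos against Tw2neg, and 1, 2, 0 and 0 rose, while 1 of 9 satellite cell markers rose and 3 fell, 0 of 8 endothelial markers rose and 7 fell, and all 8 B cell markers fell. Over all genes tested in that comparison, 20.0% fell and 18.7% rose. The satellite cell markers that fell numbered 0 without Tw2pos replicate 1 or Tw2neg replicate 1 and 1 without Tw2pos replicate 2. Without Tw2pos replicate 2, 4 endothelial, 1 Schwann and 1 adipocyte marker fell, and without Tw2neg replicate 1, 1 Schwann and 1 adipocyte marker fell. The Schwann marker that rose did so with neither Tw2pos library left out, and without Tw2pos replicate 1, 1 adipocyte marker rose.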

Additional observations from a re-analysis of the deposited data

Results flagged for a closer look

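Ebf1 and Ebf2 drew attention because their labelled-minus-unlabelled differences went in opposite directions in the 2 lines. The difference between the lines was 5.64 on the log2 scale for Ebf1 (limma adjusted p = 0.00014) and 6.99 for Ebf2 (limma adjusted p = 0.000154). By this limma test 23.4% of 4790 genes were higher. Both Tw2pos libraries of each gene lay above both Tw2neg libraries, as for 37.1% of 14155 genes, while the single Pax7pos library lay below Pax7neg. Ebf1 entered the CPM table through its Pax7pos difference from Tw2neg (-4.55), and Ebf2 through its Pax7pos (-5.17) and Tw2pos (1.79) differences. The values of both genes here are therefore not independent of that choice. The Pax7 effect rests on 1 library a group, and its spread is taken from the Twist2 libraries. No group has 4 or more libraries, so no library could be examined as an extreme value within its group.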

How the results depend on the processing

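In Tw2pos against Tw2neg, Ebf2 passed under all 15 settings (1.40 to 2.25). Leaving out each replicate gave 0.78 to 1.06 for Ebf1, 1.45 to 2.25 for Ebf2, 0.29 to 1.43 for Ebf3 and 1.19 to 2.07 for Ebf4. Ebf1 lost its call by library total scaling (0.47, adjusted p = 0.0821). The replicate numbers of the 2 groups are not stated to mark shared animals, and with 2 pairs the correlation of deviations was 0.26; with the replicate block, Ebf3 passed at 0.86 (adjusted p = 0.0044) and 6627 genes passed against 5470. No paired analysis was possible for the comparisons with the Pax7 line because its groups have 1 library each. Of 467 values of the other named genes under alternatives, 420 kept their side of the threshold, 41 lost their call and 6 gained one, and signs changed only where neither fit passed, as for Cxcl12 in Tw2pos against Tw2neg.

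For Tw2pos against Tw2neg, 2975 of the CPM table's genes passed in the 6-library fit, and leaving out each replicate gave 2578 to 7370 (2578 without Tw2pos replicate 2, 2831 without Tw2pos replicate 1, 7370 without Tw2neg replicate 1). By library total scaling 1607 genes were higher and 5257 lower, against 2645 and 2825. Tw2pos against Pax7pos had 2853 genes, 1501 at a mean CPM of 50 or more, 1847 by quantile normalisation, and 1635 to 1828 without Tw2pos replicate 1 or 2. Tw2neg against Pax7neg had 11 genes, 84 with TMM factors, 18 with a mean of at least 50, 3 with no filter, 1 with no variance trend, 1 with a pseudocount of 10, 1 by quantile normalisation, and 855 to 1038 without Tw2neg replicate 2 or 1. The difference between the lines had 1736, 979 with a mean of at least 50, 958 by quantile normalisation, and 935 to 3106 without 1 replicate (935 and 939 without Tw2pos replicates 1 and 2, 3106 and 2866 without Tw2neg replicates 1 and 2). In Pax7pos against Pax7neg, 908 genes were past the size, and 1568 with a pseudocount of 1, where Ebf1 was -4.71 and Ebf2 -5.15, and with TMM factors they were -2.99 and -2.21. In a fit without 1 Twist2 replicate, the spread comes from the other Twist2 pair alone. The chi-square per degree of freedom between replicates was 13.7 in Tw2pos and 69.6 in Tw2neg. The causes of these moves were not tested, apart from the filters and the CPM table, which leave fewer genes. Ebf1 and Ebf2 passed in all 11 settings of Tw2pos against Pax7pos and of the difference between the lines, and in 0 of 9 for Tw2neg against Pax7neg. edgeR and DESeq2 were not run on comparisons with Pax7neg, whose reads are inferred less directly. With 2 reads of Ebf2 in Pax7pos and 32 to 89 of Ebf4 a library, counting error limits both.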
